A study of Mus musculus with 41 samples.

Results

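Bivalent promoters of mouse embryonic stem cells grown in serum (ESC-ser) that also carried lactylation of lysine 18 of histone H3 (H3K18la) are described here, with their gene classes and their marks in 2i medium, muscle, macrophages and adipocytes. A gene was a member where the window of 2000 bp on either side of any of its transcription start sites (TSS) overlapped, by at least 1 bp, an ESC-ser peak of H3K4me3, one of H3K27me3 and one of H3K18la. Of the 53843 genes annotated on chromosomes 1 to 19 and X (mm10), 1870 were members (3.47%), and 1453 of them were protein-coding. The members were thus chosen by 3 measured peak lists, and nothing in those lists at these promoters is a finding. Over all annotated genes, 25.6% had a promoter peak in the ESC-ser H3K4me3 list, 17.6% in the H3K27me3 list and 20.6% in the H3K18la list. Of the 3629 genes with both H3K4me3 and H3K27me3, the members made up 51.5%.

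The series holds CUT&Tag profiles, a method that has an antibody-guided transposase cut the DNA beside a histone mark, from 41 samples in 24 groups of cell type and mark. The embryonic stem cells were of the E14 line, in serum-lif (ESC-ser) or 2i-lif (ESC-2i) medium. The other cells came from C57BL/6 mice: white adipocytes (ADIPO), gastrocnemius muscle (GAS), macrophages sorted from muscle after ischemia (PIM) and, with DMEM as the labelled medium, primary myoblasts (MB), primary myotubes (MT) and macrophages grown from bone marrow (BMDM). By the methods, the myoblast medium was DMEM mixed with another nutrient medium. GAS is a whole tissue of several cell types. All samples are labelled as controls, and the methods name a reporter strain (AdipoCre-NuTRAP) as the source of the adipocytes. Each group has 1 peak list. It was called on the pooled coverage of 2 samples in 17 groups and of 1 sample in 7 groups, so no value below has a replicate error. Intervals are 95% intervals that cover counting error over genes only, and genes that share a promoter are not independent.

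H3K4me3 marks the start sites of active or activatable genes, and H3K27me3 is laid down by Polycomb repressive complex 2 at silent developmental genes. Promoters with both marks, called bivalent, are known from embryonic stem cells, where they belong largely to regulators of later lineages. Such promoters are usually rich in CpG dinucleotides. H3K18la is an acylation derived from lactate, and H3K27ac is an acetylation of active promoters and enhancers. Each mark was measured in a separate library of many cells, so marks on the same molecule and marks in different cells of a culture or tissue cannot be told apart.

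The 2 comparison groups were the 1759 bivalent genes without an ESC-ser H3K18la peak (1330 protein-coding) and the 6186 genes with H3K4me3 and H3K18la but no H3K27me3 (4643 protein-coding). The 3 groups share no gene. Promoters of 4 members and of 1 bivalent gene without H3K18la are shown by the 300 bases before a TSS, 5′ to 3′ on the strand of the gene (mm10), with CpG dinucleotides in capitals, because CpG density is the sequence feature compared below. Those of Pax6, Kdm6b and Sfi1 lie at start sites inside the gene, other than the TSS with the most H3K4me3 at which the CpG ratios below were computed. Esrrb (chr12:86469817-86470116, plus strand, inside the gene and outside any exon) is a nuclear receptor of the pluripotency network and held the largest H3K18la signal among members that had H3K27me3 and no H3K18la in MB, MT, GAS, BMDM and PIM. Pax6 (chr2:105681412-105681711, plus strand, inside the gene and outside any exon), an eye and neural homeobox factor, had H3K27me3 in all 7 cell types where that mark was profiled. Kdm6b (chr11:69404216-69404515, minus strand, inside an exon of the gene) encodes an H3K27 demethylase and had H3K18la in all 8 cell types. Sfi1 (chr11:3146357-3146656, minus strand, inside an exon) had the largest ESC-ser H3K18la signal of all protein-coding members. Hand2 (chr8:57320683-57320982, plus strand, over exons of the antisense gene Hand2os1), a heart and limb regulator, had the largest H3K27me3 signal of the bivalent genes without H3K18la. Pax6 and Kdm6b were added after their values had been seen.
Esrrb: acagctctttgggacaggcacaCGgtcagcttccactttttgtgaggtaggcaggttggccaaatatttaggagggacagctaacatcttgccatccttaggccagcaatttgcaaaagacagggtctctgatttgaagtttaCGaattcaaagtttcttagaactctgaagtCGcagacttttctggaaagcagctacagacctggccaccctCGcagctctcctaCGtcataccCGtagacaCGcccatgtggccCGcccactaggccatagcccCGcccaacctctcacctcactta
Pax6: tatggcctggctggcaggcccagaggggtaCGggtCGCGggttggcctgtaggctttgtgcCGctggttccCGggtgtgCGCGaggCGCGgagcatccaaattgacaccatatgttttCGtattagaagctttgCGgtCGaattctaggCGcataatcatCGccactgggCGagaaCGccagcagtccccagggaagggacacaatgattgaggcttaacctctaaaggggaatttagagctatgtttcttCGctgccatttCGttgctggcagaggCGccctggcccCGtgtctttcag
Kdm6b: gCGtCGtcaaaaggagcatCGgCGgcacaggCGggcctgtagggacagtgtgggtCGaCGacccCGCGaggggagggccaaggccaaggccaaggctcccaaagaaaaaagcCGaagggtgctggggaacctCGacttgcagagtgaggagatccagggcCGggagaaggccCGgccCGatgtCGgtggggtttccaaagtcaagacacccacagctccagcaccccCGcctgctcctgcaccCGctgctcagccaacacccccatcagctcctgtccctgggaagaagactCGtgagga
Sfi1: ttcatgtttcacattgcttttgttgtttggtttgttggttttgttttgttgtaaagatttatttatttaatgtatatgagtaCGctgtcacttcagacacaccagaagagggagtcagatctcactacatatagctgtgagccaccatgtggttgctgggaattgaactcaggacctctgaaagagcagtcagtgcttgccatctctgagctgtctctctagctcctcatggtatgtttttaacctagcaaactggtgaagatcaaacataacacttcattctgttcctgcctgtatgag
Hand2: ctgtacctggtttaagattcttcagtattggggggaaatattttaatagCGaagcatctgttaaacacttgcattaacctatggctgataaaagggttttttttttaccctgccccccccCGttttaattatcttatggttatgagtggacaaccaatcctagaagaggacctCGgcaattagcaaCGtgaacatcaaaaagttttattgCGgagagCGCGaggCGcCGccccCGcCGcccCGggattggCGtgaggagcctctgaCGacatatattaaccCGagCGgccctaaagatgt
The stretch held 9 CpG for Esrrb, 20 for Pax6, 18 for Kdm6b, 1 for Sfi1 and 16 for Hand2. Its GC content was 51.3%, 57%, 64.7%, 40.7% and 47.0%, in the same order. ESC-ser H3K18la and H3K4me3 covered all 300 bases at the 4 members, and H3K27me3 covered 300 at Pax6, Kdm6b and Sfi1 and 0 at Esrrb, whose H3K27me3 lay at other start sites of the gene.

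CpG islands were called from the genome where 200 bp or more reached 50% GC and 0.6 of the CpG number that base composition predicts. Of the members, 1717 (91.8%, interval 90.5 to 93.0) had an island in a promoter window, against 31.3% of all annotated genes and 60.6% of protein-coding genes. The share was 95% in bivalent genes without H3K18la, a difference of -3.18 points (-4.80 to -1.57). It was 86.1% in genes with H3K18la and no H3K27me3, a difference of 5.74 points (4.16 to 7.19). The deficit against the other bivalent genes was lost when H3K4me3 of the ESC-2i list replaced that of ESC-ser in the rule (0.093 points), and the excess over the non-bivalent genes had an interval that reached 0 with protein-coding genes and only their protein-coding transcripts (1.56 points, 1312 members). Median observed over expected CpG within 500 bp of the TSS was 0.66 in members, 0.739 in bivalent genes without H3K18la and 0.712 in non-bivalent genes. The quartiles of the members, 0.505 and 0.787, overlapped those of both groups. All these medians lay above the 0.262 of all annotated genes.

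The rule asked for the 3 marks at any start site of a gene, and their arrangement is given as a description of the lists that chose the members. Each mark covered a median of over 3000 bp of the window, so shared bases follow in part from the width of the peaks. For 1655 members (88.5%) all 3 lay in the window of the same TSS, and for 1544 (82.6%) all 3 shared bases, a median of 2211 bp. The other 215 members (11.5%), Esrrb among them, had the marks at different start sites only. A further 111 (5.94%) had all 3 in the window of the same TSS without shared bases. At Dnmt3a, Etv4, Gnas, Mest, Dtx1, Ptch1, Pde1b, Prss57 and Sept9, all named below, the 3 marks shared no base either. Around the TSS with the most H3K4me3, H3K18la covered 79.9% of the members at its highest point, 100 bp downstream, and H3K27me3 covered 72.7% at its highest point, 400 bp downstream. H3K27me3 was the broader mark, with 30.0% of members still covered 5000 bp upstream against 20% for H3K18la and 9.68% for H3K4me3. Of the 1756 members with H3K18la in that window, 740 (42.1%) had all H3K18la bases under H3K27me3, 770 (43.8%) had part of them there and 246 (14.0%) had none.

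**Figure D1:**
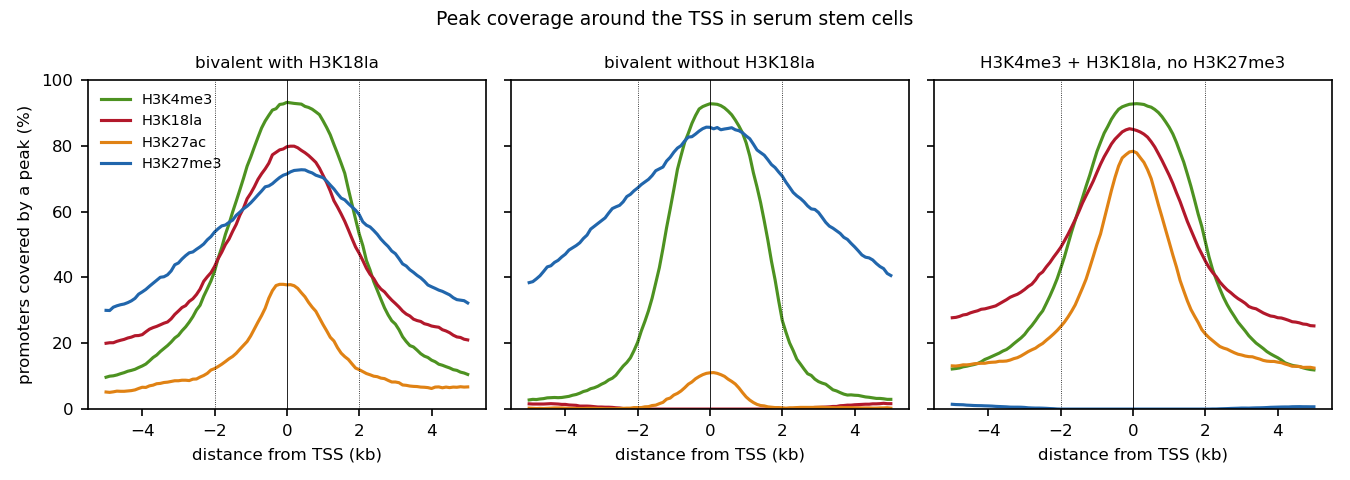
Percent of promoters covered by an ESC-ser peak (y axis) at each distance from the TSS with the most H3K4me3 (x axis, kb; positive is downstream), for the members and the 2 comparison groups; dotted lines mark the window of the rule. H3K27ac reached 37.9% of the members, 11.1% of the bivalent genes without H3K18la and 78.3% of the non-bivalent genes.

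The 1-bp limit of the rule decided few genes. The members nearest to it were Mpg, a DNA repair glycosylase, with 3 bp of H3K27me3, Gm44757 with 8 bp of H3K4me3 and Cdk18 with 11 bp of H3K27me3. Just outside it, Tmem256 and the ribosomal protein gene Rpl11 missed an H3K27me3 peak by 11 and 20 bp, and Gm17045 missed an H3K18la peak by 20 bp. In all, 39 members (2.09%) had a limiting overlap of at most 200 bp. The members lay at 1443 separate loci, 1085 of which held a single member. The largest held 6 genes, as at Six3.

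The peak lists differ in size, and the threshold of each was set within the list. They held between 11002 and 36813 peaks and covered between 22.6 and 197 Mb. The ESC-ser H3K4me3 list, which the rule used, held the fewest peaks. Of the 5578 genes with ESC-ser H3K27me3 and ESC-2i H3K4me3, 63.8% also had ESC-ser H3K4me3. The 39 Hox cluster genes, body-axis regulators and textbook Polycomb targets, all had ESC-ser H3K27me3, but 2 had ESC-ser H3K4me3 and 36 had ESC-2i H3K4me3. Of the 5 stem cell markers Pou5f1, Nanog, Sox2, Esrrb and Zfp42, all had H3K18la in both stem cell lists and 0 in the other 6 cell types. The 5 muscle markers were all called in MT and GAS and 2 of them in MB (Myod1 and Des), the 5 macrophage markers in BMDM and PIM, and the 5 adipocyte markers in ADIPO. Csf1r and Spi1, macrophage genes, also had H3K18la in MT and GAS, Spi1 and Cd68 in ADIPO, and Cd68 in MT, ESC-ser and ESC-2i. Acta1 and Des, muscle genes, had it in ADIPO. Adipoq was called in both macrophage lists and Pparg in MB, GAS and PIM. The part of other cell types in the member calls was not tested.

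Several classes of developmental regulators and signalling genes held a larger share of members than protein-coding genes as a whole. The 35 gene lists used for this were compiled with earlier results of these data known, so the counts are descriptions. Against 6.68% of all protein-coding genes, 82 of 429 genes (19.1%) of 9 transcription factor families were members. A further 114 (26.6%) were bivalent without H3K18la, against 6.11% of all protein-coding genes. Dispersed homeobox factors gave 35 members of 155 genes, basic helix-loop-helix factors 13 of 62, forkhead factors 9 of 44 and SOX factors 6 of 19. In these 4 families more genes were bivalent without H3K18la (46, 19, 16 and 7). T-box factors gave 2 members of 16 and GATA factors 1 of 6, with 6 and 3 bivalent genes without H3K18la.

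Among secreted ligands, which carry signals between cells, the counts leaned the other way in some families. FGF ligands gave 9 members of 22 and 3 bivalent genes without H3K18la, TGF-beta superfamily ligands 11 of 34 and 6, and Notch ligands 4 of 5 and 1. Wnt ligands gave 4 members of 19 and 9 bivalent genes without the mark. Axon guidance genes (semaphorins, netrins, slits and their receptors) gave 17 of 49 and 14 bivalent genes without H3K18la, and ephrins with their Eph receptors gave 7 of 22 and 5. Voltage-gated and potassium channels gave 20 members of 138 and 33 bivalent genes without H3K18la, neurotransmitter receptors 7 of 101 (6.93%, near the share of all protein-coding genes) and 21, and classical cadherins, cell adhesion proteins, 2 of 23 and 10. None of these shares was tested against another.

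Pluripotency genes gave 4 members of 19 (Esrrb, Tbx3, Prdm14 and Klf4), no bivalent gene without H3K18la, and 14 genes with H3K18la and no H3K27me3. Of 13 formative and primed genes, which mark the exit from naive pluripotency, 7 were members: Otx2, Dnmt3a, Dnmt3b, Zic2, Sall2, Lef1 and Etv4. A further 2 were bivalent without H3K18la. Of 24 genes of germ-layer onset, 11 were members, among them Lefty1, Lefty2, Pax6, Hand1, Cdx2, Gsc and Foxa2. A further 8 (33.3%) were bivalent without H3K18la. Of 20 adipocyte genes, 2 were members (Slc2a4 and Ebf1) and 4 were bivalent without H3K18la. Housekeeping genes gave 0 of 14 and ribosomal protein genes 1 of 76. Polycomb and H3K27 demethylase genes gave 5 of 29, Kdm6b and Kdm2b among them, and imprinted genes gave 5 of 38 (Gnas, Mest, Phlda2, Sgce and Peg10). In these 2 classes 2 and 5 genes were bivalent without H3K18la. The 417 noncoding or pseudogene members included 115 antisense genes and 82 lincRNAs. Many of these share a window with a coding member.

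**Figure D2:**
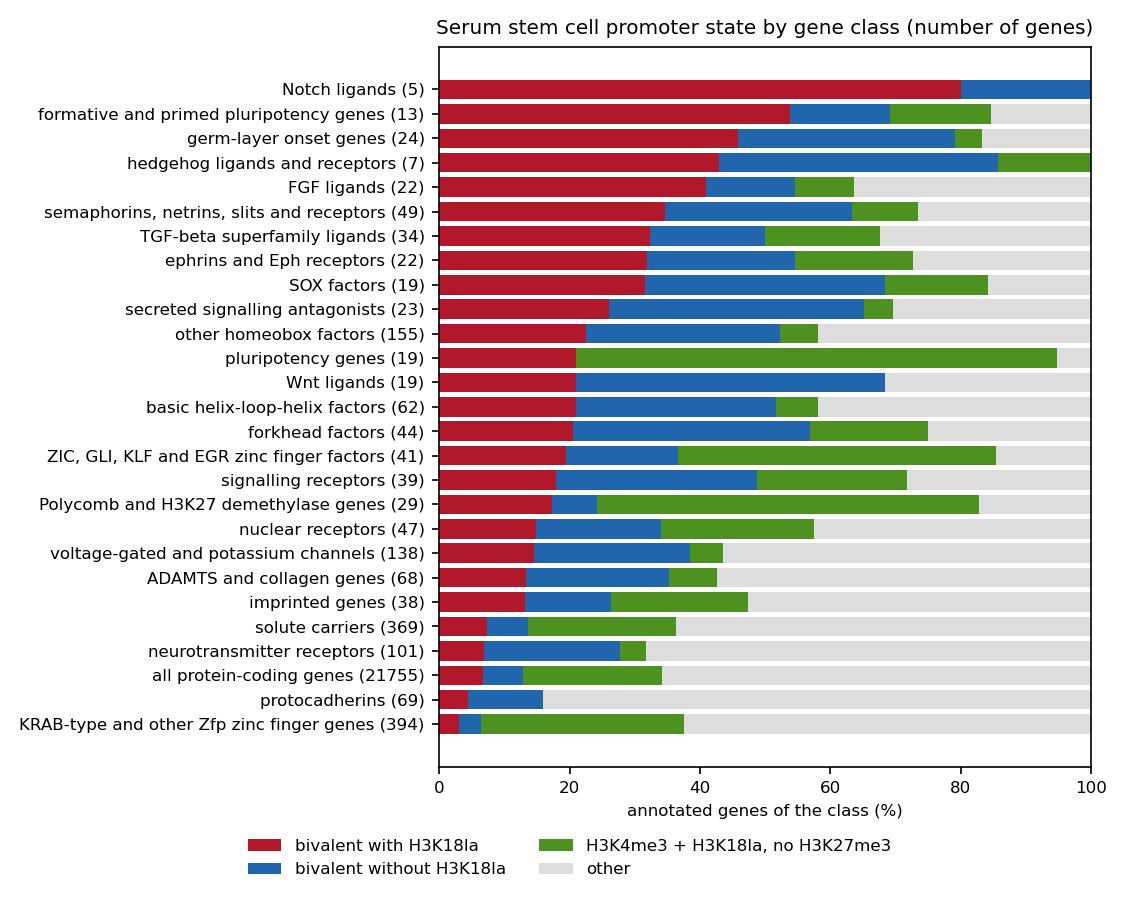
Share of the annotated genes of each class (x axis, percent; number of genes in brackets) that were bivalent with H3K18la, bivalent without it, non-bivalent with H3K18la, or none of these, for all classes with at least 3 members. Notch ligands (4 of 5) and formative and primed genes (7 of 13) stand at the top, and all protein-coding genes (6.68%) near the bottom.

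H3K27ac in ESC-ser, which the rule did not use, lay between those of the comparison groups. A promoter peak was called for 1038 members (55.5%, interval 53.2 to 57.7), where 21.8% of all annotated genes had one. Bivalent genes without H3K18la had it in 13.8%, a difference of 41.8 points (38.9 to 44.5). Non-bivalent genes with H3K18la had it in 93.3%, a difference of -37.8 points (-40.2 to -35.5). The other 832 members had no ESC-ser H3K27ac peak. The H3K27ac list covered 32.0 Mb and the H3K18la list 82.4 Mb, and nothing in the labels says that they came from the same cultures. Pax6, Otx2, Hand1 and Prdm14 were among those without H3K27ac, and Esrrb, Lefty1, Lefty2, Klf4 and Kdm6b among those with it. The ESC-ser H3K27ac list came from 1 sample.

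The question put to each of the 21 peak lists outside the rule was whether the members differed from the 2 comparison groups, which gave 42 intervals. Against bivalent genes without H3K18la, 19 of 21 intervals excluded 0, with the members higher in 13 and lower in 6. Against non-bivalent genes with H3K18la, 20 of 21 excluded 0, with the members higher in 7 and lower in 13.

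**Figure D3:**
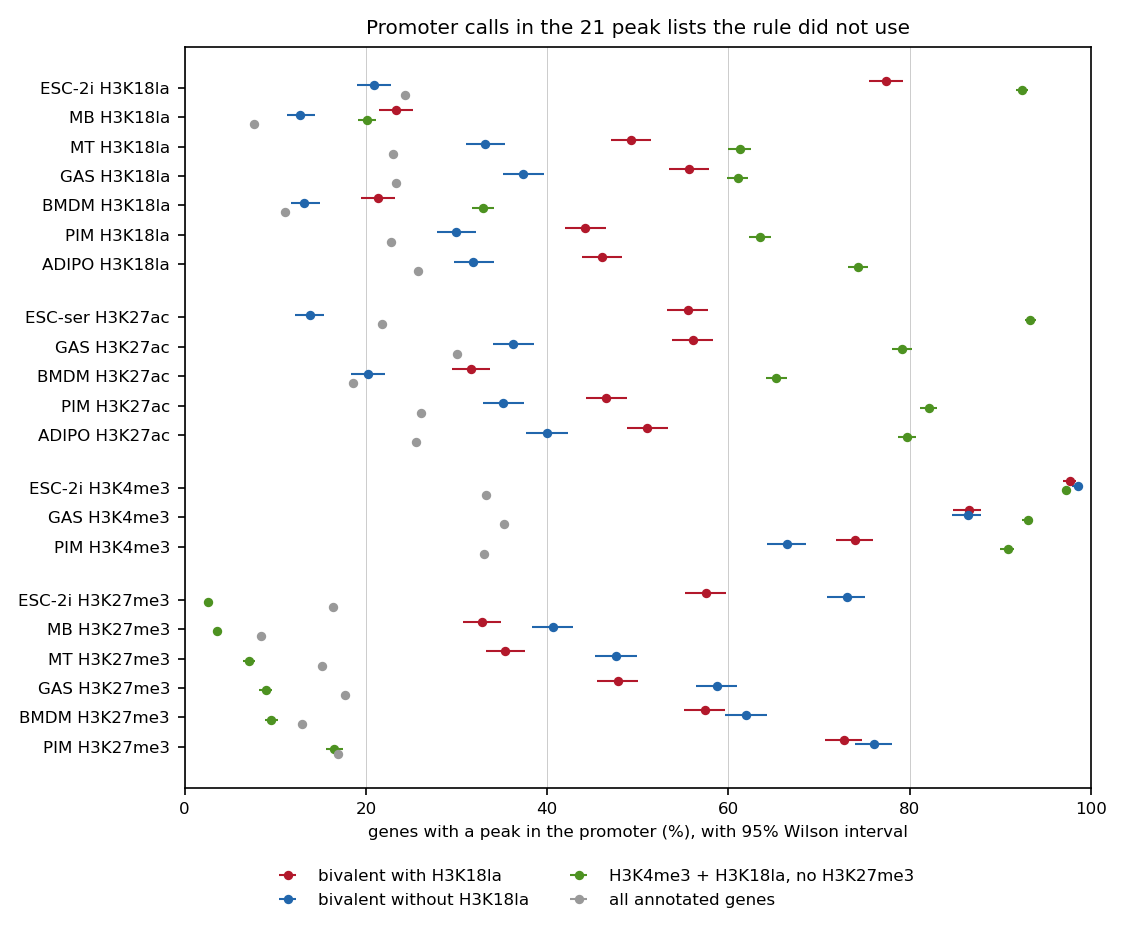
Percent of genes with a promoter peak (x axis) in each of the 21 lists that the rule did not use (y axis), for the members, both comparison groups and all annotated genes; bars are 95% Wilson intervals. The members lie to the right of the other bivalent genes in every H3K18la and H3K27ac list and to their left in every H3K27me3 list.

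In ESC-2i, where the 2 inhibitors of the medium hold stem cells in a naive state, most members had H3K4me3 and H3K18la peaks and fewer had H3K27me3. H3K18la was called for 1448 members (77.4%, 75.5 to 79.3) against a background of 24.3%. It was called for 20.9% of the bivalent genes without ESC-ser H3K18la, 56.6 points lower (interval 53.8 to 59.2), and for 92.4% of the non-bivalent genes. H3K4me3 was called for 1827 members (97.7%) against a background of 33.2%, and differed from the other bivalent genes by -0.878 points, with an interval (-1.79 to 0.012) that reached 0. Under 6 of the alternatives the interval lay below 0, with differences between -1.32 and -0.899 points. H3K27me3 was called for 1075 members (57.5%) against a background of 16.4%. The other bivalent genes had it in 73.1%, a difference of -15.6 points (-18.6 to -12.5). The ESC-2i H3K27me3 list covered more of the genome than the ESC-ser list (145 against 86.6 Mb) with a similar number of peaks (24613 and 24436).

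As a combination, 684 members (36.6%) had all 3 marks in ESC-2i, 740 (39.6%) had H3K4me3 and H3K18la without H3K27me3, and 360 (19.3%) had H3K4me3 and H3K27me3 without H3K18la. Of the bivalent genes without ESC-ser H3K18la, 1098 (62.4%) had H3K4me3 and H3K27me3 alone, 170 (9.66%) all 3 marks and 194 (11%) H3K4me3 and H3K18la. Of the non-bivalent genes, 88.5% had H3K4me3 and H3K18la and 1.71% all 3 marks. Of all annotated genes, 2.54% had both H3K18la and H3K27me3 in ESC-2i and 21.7% had H3K18la without H3K27me3, whatever their H3K4me3. Lefty1, Lefty2, Otx2, Pax6 and Esrrb were members that had all 3 marks in both media. Klf4, Tbx3, Prdm14, Lef1 and Kdm6b had H3K18la and no H3K27me3 in ESC-2i. Hand1, a trophoblast and heart regulator, had H3K27me3 and no H3K18la.

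In the 6 other cell types H3K18la was called at a mean of 39.9% of members ± 14.2 (SD over 6 cell types). The mean was 26.4% ± 10.7 for bivalent genes without H3K18la, 52.2% ± 20.9 for non-bivalent genes with it and 18.9% ± 7.56 for all annotated genes. These spreads are over cell types, whose lists differ in length, and they overlap between groups. Within each of the 6 lists the interval of the difference between members and other bivalent genes excluded 0.

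In the muscle series H3K18la was called for 435 members in MB (23.3%, background 7.61%), 921 in MT (49.3%, background 23.0%) and 1040 in GAS (55.6%, background 23.3%). The excess over the other bivalent genes was 10.5 points in MB (8.05 to 13), 16.1 in MT (12.9 to 19.2) and 18.3 in GAS (15.1 to 21.5). In macrophages it was called for 398 members in BMDM (21.3%, background 11.1%) and 827 in PIM (44.2%, background 22.8%), with an excess of 8.09 points (5.65 to 10.5) and 14.3 points (11.2 to 17.4). In ADIPO it was called for 861 members (46.0%, background 25.7%), with an excess of 14.2 points (11.1 to 17.3). Against non-bivalent genes the members were higher in MB (by 3.15 points, 1.03 to 5.35, and by 2.42 with an interval that reached 0 when only protein-coding genes and transcripts were used) and lower in the other lists, from -5.36 points in GAS to -28.3 points in ADIPO. That direction was not the same under every alternative: with the 5000 strongest peaks of each list in rule and readout, which left 269 members, the difference was above 0 in MT (6.67 points), GAS (8.22), BMDM (2.14), PIM (3.56) and ADIPO (9.32), with intervals that excluded 0 in MT, GAS and ADIPO.

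H3K27ac followed the same order. It was called for 1049 members in GAS (56.1%, background 30.0%), 591 in BMDM (31.6%, background 18.6%), 870 in PIM (46.5%, background 26.1%) and 954 in ADIPO (51.0%, background 25.5%). The excess over the other bivalent genes ran from 11.1 points in ADIPO (7.82 to 14.3) to 19.9 in GAS (16.7 to 23). The deficit against non-bivalent genes ran from -23.1 points in GAS to -35.6 in PIM, and with the 5000 strongest peaks it was -3.61 in GAS and 1.66 in ADIPO, both with intervals across 0. H3K4me3 was called for 1617 members in GAS (86.5%, background 35.2%) and for 1383 in PIM (74.0%, background 33.0%). It did not separate the members from the other bivalent genes in GAS (0.115 points, -2.11 to 2.35, or 6.18 points with H3K4me3 of ESC-2i in the rule), whereas in PIM the members were higher by 7.5 points (4.52 to 10.5). The PIM difference was -0.54 points with the 5000 strongest peaks.

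H3K27me3 was called for 613 members in MB (32.8%, background 8.44%), 662 in MT (35.4%, background 15.2%) and 893 in GAS (47.8%, background 17.7%). In macrophages the counts were 1073 in BMDM (57.4%, background 12.9%) and 1360 in PIM (72.7%, background 16.9%). Every one of these shares was below that of the other bivalent genes, by -7.81 points in MB (-10.9 to -4.67), -12.2 in MT (-15.3 to -8.98) and -10.9 in GAS (-14.1 to -7.67). In BMDM the difference was -4.53 points (-7.71 to -1.34), and in PIM it was -3.34 points (-6.17 to -0.496). The intervals in BMDM and PIM reached 0 under some alternatives, among them 1 gene per locus (-3.41 and -2.57 points), and those in MB and MT did with the 5000 strongest peaks (-3.91 and -4.93 points). Non-bivalent genes with H3K18la had H3K27me3 in between 3.52% (MB) and 16.5% (PIM).

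Members with ESC-ser H3K27ac also differed from members without it in later cell types, a comparison added after the data had been seen. Of 20 intervals, 19 excluded 0, 13 with the acetylated members higher and 6 with them lower. The exception was H3K4me3 in ESC-2i (1.27 points, -0.11 to 2.8). Its interval excluded 0 with an overlap of 200 bp and without chromosome 11. H3K18la was higher in the acetylated members by between 7.26 points in MB (26.5% against 19.2%, interval 3.43 to 11) and 21.9 points in ESC-2i (87.2% against 65.3%, 18.1 to 25.7). H3K27me3 was lower by between -11.7 points in PIM (67.5% against 79.2%) and -20.3 in GAS (38.7% against 59.0%). With the 5000 strongest peaks 5 of these intervals reached 0, those of H3K18la in MB (5.35 points) and MT (7.56) and of H3K27me3 in ESC-2i (-4.06), MB (-6.70) and MT (-4.64). The CpG island shares of acetylated and other members were 92.4% and 91.1%.

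Within the members, H3K18la in a cell type was called less often where H3K27me3 was called in that same cell type. In ESC-2i it was called for 699 of 1075 members with H3K27me3 (65.0%) and for 749 of 795 without it (94.2%), a difference of -29.2 points (-32.4 to -25.8). In GAS the shares were 32.3% and 77.0% (-44.7 points, -48.6 to -40.6), and in PIM 31.9% and 77.1% (-45.1 points, -49.4 to -40.5). In MT they were 21.8% and 64.3%, in BMDM 8.29% and 38.8%, and in MB 5.38% and 32.0%. All 6 intervals excluded 0, and in GAS the interval reached 0 with the 5000 strongest peaks (-8.86 points). H3K27ac showed the same in GAS (30.7% against 79.3%), BMDM (11.4% against 58.8%) and PIM (32.2% against 84.7%). The direction was the same in both comparison groups and over all annotated genes. Among the other bivalent genes the H3K18la difference was wider than in members in PIM (-54.4 points) and GAS (-46.2). It was narrower in ESC-2i, MB, MT and BMDM, and among non-bivalent genes in every cell type. For H3K27ac it was -67.5 points in PIM among the other bivalent genes (members -52.5) and -61.2 in BMDM among non-bivalent genes (members -47.5). In the reverse pairs it was narrower than in members (-40.7 and -48.2). The differences over all annotated genes were smaller. For H3K18la they ran from -2.09 points in PIM (21.0% against 23.1%) to -14.5 in MT, with -10.6 in ESC-2i. For H3K27ac the difference over all genes was -5.97 points in PIM. Among members with H3K27me3, the share with H3K18la was highest in ESC-2i, but it was not tested between cell types, whose lists differ in length.

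**Figure D4:**
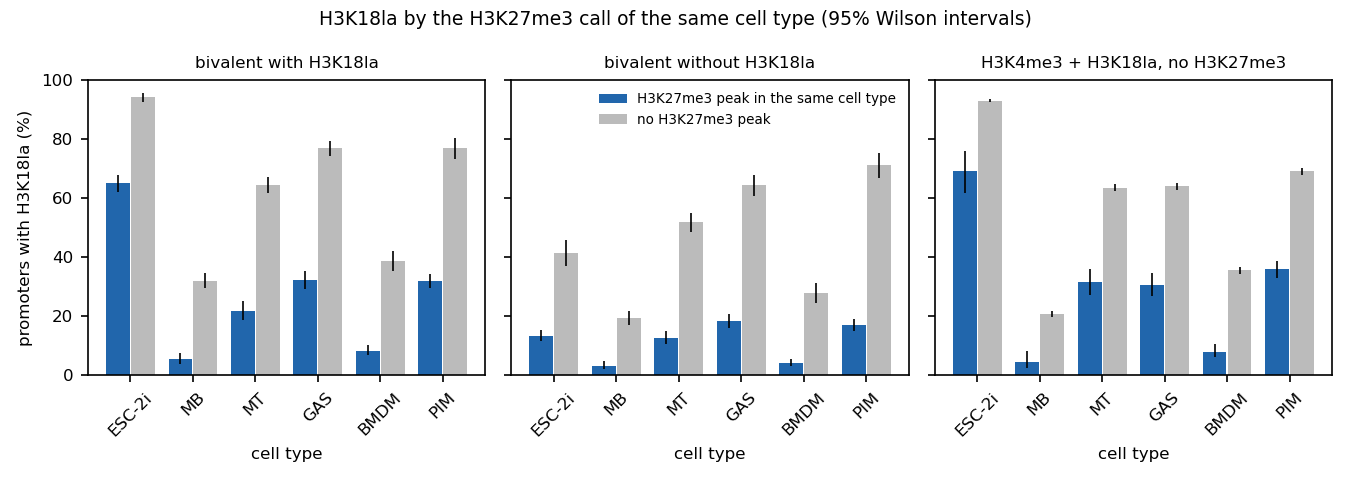
Percent of promoters with H3K18la (y axis) in each cell type (x axis), split by whether H3K27me3 was called at the same promoters in that cell type, for the members and both comparison groups; bars carry 95% Wilson intervals. In every pair of bars the one with H3K27me3 is the lower, as in GAS members with 32.3% against 77.0%.

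Over cell types the members ranged from H3K27me3 in every other cell type to H3K18la in every other cell type. Of the 5 cell types outside stem cells with H3K27me3 lists, 432 members (23.1%) had the mark in all 5 and 399 (21.3%) in 0, against 4.13% and 70.1% of all annotated genes. Of the 6 with H3K18la lists, 162 members (8.66%) had H3K18la in all 6 and 487 (26%) in 0, against 2.11% and 57.1% of all annotated genes and 9.49% and 9.41% of the non-bivalent genes with H3K18la. Among the other bivalent genes 41.2% had H3K18la in 0 of 6 and 29.3% had H3K27me3 in all 5. Of the 432 members with H3K27me3 in all 5, 248 had H3K18la in 0 of 6. Of the 399 with H3K27me3 in 0, 88 had H3K18la in all 6 and 37 in 0. The 88 were 4.71% of the members, against 1.65% of the other bivalent genes, 8.6% of the non-bivalent genes and 1.7% of all annotated genes. The counts of 248 and 37 and the medians that follow are given for members only. The median number of cell types with H3K18la was 4 for members with H3K27me3 in 0 or 1 cell type and 0 for those with it in all 5.

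The medians of the gene classes lay at different places on this range, which was not tested. The 35 dispersed homeobox members had a median of 0 cell types with H3K18la and 5 with H3K27me3, and the 11 germ-layer onset members had the same medians, where all members had 2 and 2. H3K27me3 was called for 20 of the 35 homeobox members in MT (57.1%, all members 35.4%), 21 in MB (60%, all members 32.8%) and 33 each in GAS, BMDM and PIM (94.3%, all members 47.8%, 57.4% and 72.7%). H3K18la was called for 1 of them in BMDM (2.86%, all members 21.3%), 7 in MB (20%, all members 23.3%), 8 in GAS (22.9%, all members 55.6%), 10 in MT (28.6%, all members 49.3%) and 5 each in PIM and ADIPO (14.3%, all members 44.2% and 46.0%). The 9 FGF ligands also had medians of 0 and 5. The 17 axon guidance members had medians of 3 and 3, the 7 signalling receptors 4 and 2, the 12 Zfp zinc finger genes 3 and 2, and the 5 Polycomb and demethylase genes 4 and 2.

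Signals are given for single genes as the percentile of the strongest promoter peak within its own list, since coverage was not scaled between lists. Esrrb (chr12:86361117-86521628) stood at the 99.9 percentile for H3K18la in ESC-ser and in ESC-2i and at 99.1 for ESC-ser H3K27ac. It had no H3K18la peak in the other 6 cell types, and its H3K27me3 percentile there was between 90.6 in PIM and 97.3 in GAS. Mgat5b, a glycosyltransferase, Lefty2, a Nodal antagonist, and Dtx1, a Notch pathway ubiquitin ligase, had the largest H3K18la signal after Esrrb among the members with H3K27me3 and no H3K18la in MB, MT, GAS, BMDM and PIM. Their ESC-ser H3K18la percentiles were 98.2, 98.7 and 97.3. In all, 272 members (14.5%) had that pattern, against 23.1% of the other bivalent genes, 1.37% of the non-bivalent genes and 3.15% of all annotated genes.

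Pax6, Otx2 and Hand1 had H3K27me3 in all 7 cell types, as did Lefty2 and Esrrb. The median percentile of all members with a peak was 84.2 for H3K27me3 and 60.0 for H3K18la in ESC-ser, and 85.0 and 69.4 in ESC-2i. Over all annotated genes with a peak the medians were 80.4 and 62.9 in ESC-ser and 73.9 and 63.4 in ESC-2i. Among bivalent genes without H3K18la the H3K27me3 median was 91.0 in ESC-ser and 85.5 in ESC-2i. For ESC-ser H3K4me3 the median was 68.5 in members and 35.5 in those genes. The 2 groups thus differed in the strength of their H3K4me3 and H3K27me3 peaks too. What this adds to the differences between them was not tested. Pax6 stood at 85.5 for H3K18la in ESC-ser and at 52.1 in ESC-2i. Its H3K27me3 percentile was at least 99.0 in every list. Otx2, a forebrain and epiblast regulator, stood at 67.0 and 46.9 for H3K18la in ESC-ser and ESC-2i, with H3K27me3 between 74.4 in ESC-2i and 99.9 in GAS. Hand1 had an ESC-ser H3K18la peak at 80.2, none in the other 7 lists, and H3K27me3 between 91.3 in MB and 99.7 in GAS. Hes3 and Zic5, neural regulators, had H3K18la in both stem cell lists and none elsewhere, and had H3K27me3 in all lists but ESC-2i.

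The 2 adipocyte genes among the members had H3K18la in ADIPO and in other cell types. Slc2a4, the insulin-responsive glucose transporter, had its highest H3K18la percentiles in ADIPO (97.3) and GAS (91.9) and no peak in MB, BMDM and PIM. Ebf1, an adipocyte and B cell factor, stood at 96.1 in ADIPO and 80.4 in GAS and was not called in MB, MT, BMDM and PIM.

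H3K18la was called in 1 of the 6 cell types outside stem cells for 275 members (14.7%, all annotated genes 13.3%). Few members had H3K18la in all lists of 1 lineage and in none of the others. It was called in MB, MT and GAS and in none of BMDM, PIM and ADIPO for 28 members (1.5%), among them Stac3, a protein of excitation-contraction coupling, Ptch1, the hedgehog receptor, Itga3, an integrin, and Zfp827. The other bivalent genes had this pattern in 1.59%, the non-bivalent genes in 0.42% and all annotated genes in 0.598%. Ptch1 had H3K27ac outside muscle, at the 85.8 percentile in ADIPO against 58.8 in GAS. Both macrophage lists and no other lineage gave 14 members (0.749%), against 1.02% of the other bivalent genes, 0.566% of the non-bivalent genes and 1.08% of all annotated genes, with Fbxo44, Fbxo2, Tbc1d9 and Bcl11a leading. Fbxo44 and Fbxo2 share the same peaks, whose H3K18la percentiles were 13.3 in BMDM and 15.3 in PIM. They had H3K27ac in PIM, GAS and ADIPO and none in BMDM. ADIPO alone gave 73 members (3.90%), led by Rtn4rl1, Pde1b, Cacna1a and Prss57, against 5.06% of the other bivalent genes, 7.42% of the non-bivalent genes and 4.93% of all annotated genes. For muscle 3 lists had to agree and for adipocytes 1, so the counts of the lineages are not comparable. The genes named here were ordered by ESC-ser H3K18la signal, not by signal in the lineage.

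H3K18la was called in all 8 cell types for 147 members (7.86%), for 9.28% of the non-bivalent genes with H3K18la and for 1.5% of all annotated genes. The call in ESC-ser was fixed by the choice of both groups. Kdm6b stood between 87.5 in MB and 99.1 in both stem cell lists, and its only H3K27me3 call was in ESC-ser (74.1). Id3, an inhibitor of basic helix-loop-helix factors, had H3K18la between 35.3 in PIM and 98.2 in MT, and H3K27me3 in ESC-ser (31.9) and PIM (94.6). Sept9, a septin of the cytoskeleton, had H3K18la between 41.6 in BMDM and 99.8 in ESC-ser. Klf4 was called in all lists but ADIPO and had H3K27me3 in ESC-ser only, at the 36.7 percentile. At the weak end of ESC-ser H3K18la stood Mfap3l (0.184) and Sgsh, a lysosomal sulfamidase (0.22), and Mfap3l was nonetheless called in all 8 cell types.

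**Figure D5:**
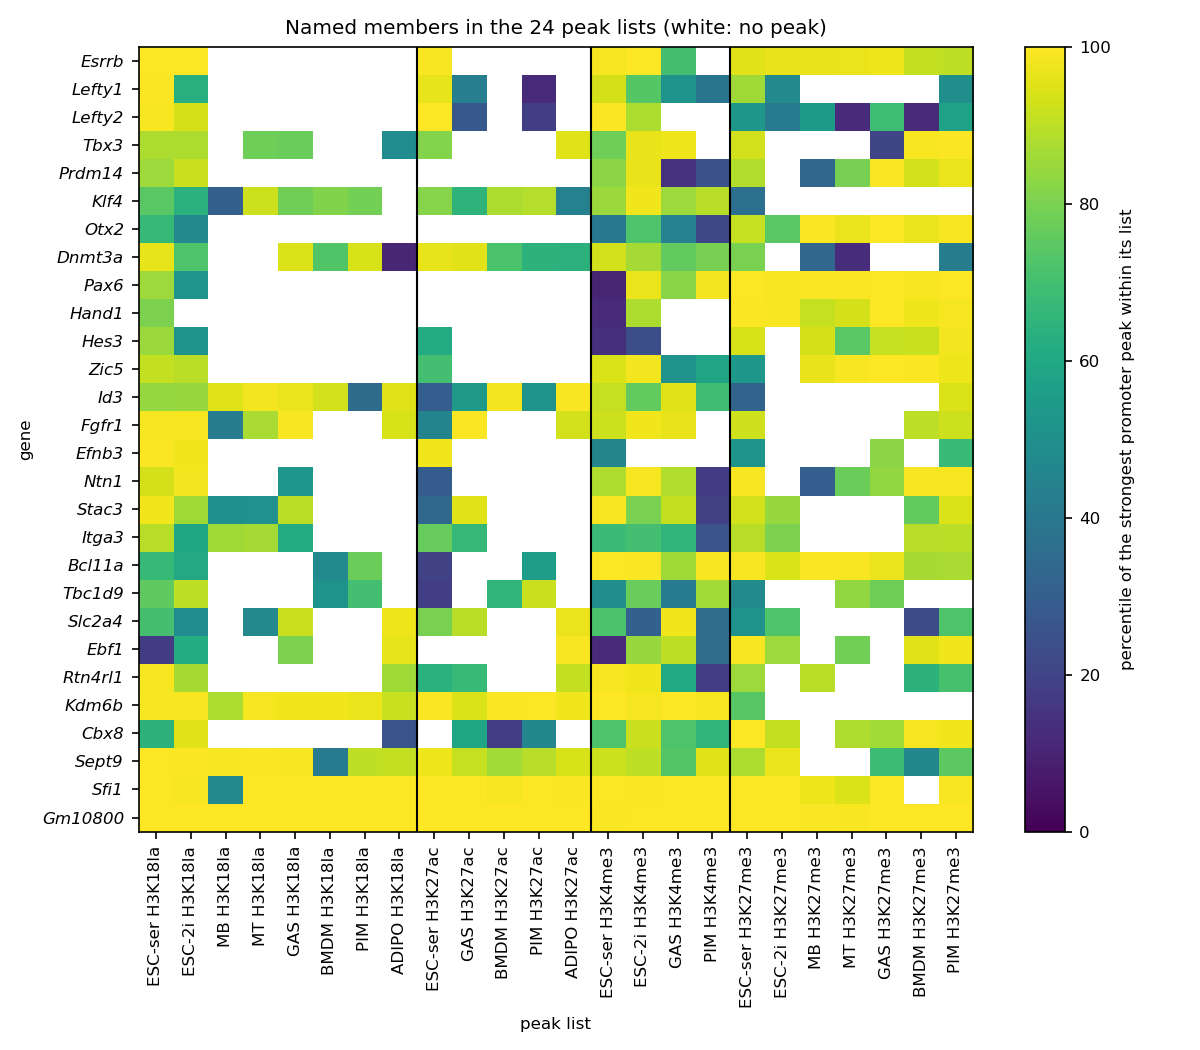
Percentile of the strongest promoter peak within its list (color, 0 to 100; white, no peak) for named members (y axis) in the 24 peak lists (x axis), grouped by mark. Esrrb and Pax6 have H3K18la in the stem cell lists only, Kdm6b has it in all 8 cell types with H3K27me3 in ESC-ser alone, and Gm10800 is near the 100 percentile in every list.

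The 2 protein-coding members with the largest ESC-ser H3K18la signal had peaks in nearly every list. Sfi1, a centrosome gene, had peaks in 23 of 24 lists and stood at or near the 100 percentile for H3K18la, H3K27ac and H3K4me3 in most of them, H3K18la in MB (47.2) excepted. Gm10800 had peaks in all 24 lists, none below the 99.2 percentile. In all, 17 members (0.909%) had peaks in at least 23 lists, 3 of which the rule had fixed, and 4 of the 17 lie on chromosome 17 and include an rRNA gene. The study filtered peaks over blacklisted regions, and no blacklist was applied here. Without the 17 genes 1853 members remained and 1 of the calls above was altered, that of H3K4me3 in ESC-2i against the other bivalent genes (-0.899 points).

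Chromosome 11 held 259 of the members (13.9%) and 6.42% of the bivalent genes without H3K18la, a difference of 7.43 points (5.48 to 9.38). It held 11.7% of the non-bivalent genes with H3K18la, 5.59% of all annotated genes and 7.53% of protein-coding genes. Of the 20 chromosomes compared this was the widest difference. The shares on chromosome 11 of all genes with ESC-ser H3K18la, H3K4me3 and H3K27me3 were 11.4%, 9.54% and 8.47%, and of genes with ESC-2i H3K18la, H3K4me3 and H3K27me3 9.84%, 8.14% and 8.66%. The difference lay between 7.15 and 11.3 points under the alternatives. Without chromosome 11, the comparisons with the other groups kept their direction in every list, and the H3K4me3 difference in ESC-2i became -1.21 points with an interval below 0.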

How the data were processed

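H3K4me3, H3K27me3, H3K18la and H3K27ac were profiled by CUT&Tag in 8 mouse cell types, on whole cells for the stem cells and on nuclei for the others. The authors trimmed reads (Trim Galore 0.6.6), aligned them to mm10 (Bowtie2 2.4.4, SAMtools 1.13), computed coverage (bedtools 2.30), pooled it over replicates and called peaks with SEACR 1.3, keeping the top fraction of regions of each track. The deposited column used here holds the total signal of each peak, that is coverage summed over its bases, in whole numbers that were not scaled for depth. Signal was therefore ranked within a list. The study gives the reads of each sample among its quality metrics, and they were not used here. The version numbers are from the submitters' processing notes.

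Promoters were 2000 bp on either side of each TSS of 139486 transcripts (GENCODE, mm10). The stem cell lists without a medium in their name were read as ESC-ser, which their sample labels state. Shares carry 95% Wilson intervals and differences 95% Newcombe intervals. A difference was called where its interval excluded 0, over 42 intervals against the comparison groups, 20 by ESC-ser H3K27ac, 9 by H3K27me3 of the same cell type and 20 by chromosome. The last 3 of these families were chosen once values were known. No p-value is given. The members and gene lists were chosen with earlier results of these data known. Named genes were, by ESC-ser H3K18la signal, the leading members of each list, family and pattern, the 5 largest and 2 smallest, and those next to the limit. Only a selection of them is described, and some items are not reported here. Windows overlapping an annotated untranslated region were passed over for printed sequence. Interval functions were tested on simulated data against bedtools 2.31.1. Python 3.11.15, numpy 2.4.6, pandas 2.3.3, scipy 1.17.1, numba 0.67.0 and matplotlib 3.10.9 were used. The 7 alternatives and 3 added after the data had been seen are given in the closing section.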

Additional observations from a re-analysis of the deposited data

Results flagged for a closer look

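H3K18la in MB differed in direction from the other cell types: the members exceeded the non-bivalent genes with H3K18la by 3.15 points there and were below them in ESC-2i, MT, GAS, BMDM, PIM and ADIPO. The MB list was from 1 sample and was the shortest H3K18la list, with 13550 peaks. With the 5000 strongest peaks the members were above the non-bivalent genes in MT, GAS, BMDM, PIM and ADIPO as well as in MB (5.13 points). The difference between MB and the other cell types was not itself tested, and with protein-coding genes and transcripts the MB value was 2.42 points with an interval that reached 0.

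The 3 lists of the rule held 28 peaks outside chromosomes 1 to 19 and X, which no comparison used.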

How the results depend on the processing

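No paired analysis was possible because replicates had been pooled before peak calling, and for the same reason no replicate could be left out. The number of members lay between 1312 and 2159 under 9 of 10 alternatives and was 269 with the 5000 strongest peaks of each list. Those peaks reversed the comparison with non-bivalent genes for H3K18la in MT (6.67 points), GAS (8.22), BMDM (2.14), PIM (3.56) and ADIPO (9.32) and for H3K27ac in ADIPO (1.66), and that with the other bivalent genes for H3K4me3 in PIM (-0.54). With them the interval also reached 0 for H3K27ac in GAS against non-bivalent genes (-3.61), for H3K27me3 against the other bivalent genes in MB (-3.91), MT (-4.93) and PIM (-4.24), for the island excess over non-bivalent genes (3.43) and for H3K18la by H3K27me3 in GAS (-8.86). Fewer members make these intervals wider. H3K4me3 in ESC-2i against the other bivalent genes had an interval below 0 with protein-coding genes and only their protein-coding transcripts (-1.15), an overlap of 200 bp (-1.32), marks at the same TSS (-1.02), 1 gene per locus (-1.24), without genes in at least 23 lists (-0.899) and without chromosome 11 (-1.21). Restriction to protein-coding genes and transcripts also ended the calls for H3K18la in MB against non-bivalent genes (2.42), for H3K27me3 in PIM (-3.01) and for the island excess (1.56). With 1 gene per locus H3K27me3 was no longer separated from the other bivalent genes in BMDM (-3.41) and PIM (-2.57). With H3K4me3 of ESC-2i in the rule it was not separated in BMDM (-1.24) and PIM (-0.98), the island difference was 0.093, a reversal, and H3K4me3 in GAS was higher in members by 6.18 points. Except for the effect of fewer members, the cause was not tested. Windows of 1000 bp and marks sharing bases altered no call. Direction and call were the same for 193 recomputed differences against the other bivalent genes (16 were not) and for 201 against the non-bivalent genes (8 were not).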
